A study of Mus musculus with 88 samples.

Results

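Complement genes outside C1q were followed in 4 transplanted tumours of the mouse, irradiated with carbon ions or with gamma rays. The 7 genes were Cfb, C2, C3, Serping1, Cfp, C3ar1 and C5ar1, chosen by name. Each gene was read from its brightest probe over 88 arrays, with symbols updated by Entrez number. A probe was found for 6 of the 7, out of 18069 genes with a probe, and all 6 were among the 13465 genes bright enough to test. C3 had no probe named for it and was not analysed here. The tumours grew in hind legs of C3H/HeNrs mice: NR-S1 and SCCVII, both labelled squamous cell carcinoma (SCC), NFSa, a spontaneous fibrosarcoma, and #8520, a fibrosarcoma induced by radiation. Carbon ions were given at 30 Gy, and gamma rays, the reference beam, at either 30 or 50 Gy, and RNA was taken after 6 h, 1 day and 3 days. Each beam's arm had untreated tumours of its own, and each of the 44 groups held 2 arrays. The labels do not say that the 2 arrays came from separate mice, so p-values measure the spread between arrays, which may be technical. Each value is from whole tumour, in which fewer cells of a type and less RNA per cell cannot be told apart. Of the 2 tumours labelled SCC, NR-S1 carried the keratin Krt5 at a mean log2 intensity of 8.38 when untreated (n = 4 arrays), while SCCVII, at -1.62, lay near NFSa (-1.70) and #8520 (-1.96).

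Complement is a cascade of plasma proteins that marks and lyses cells and calls in white blood cells. The classical and lectin routes begin with C1q or lectins and cut C4 and C2 to form a convertase, an enzyme that cleaves C3. The alternative route builds its convertase from C3b and factor B (Cfb) and is held together by properdin (Cfp). C1 inhibitor (Serping1) blocks the proteases that start the classical and lectin routes, and also contact-system proteases. The small fragments released on the way, C3a and C5a, act through the receptors C3ar1 and C5ar1 on myeloid cells. The liver makes most plasma complement, while macrophages, neutrophils, fibroblasts and epithelium make several components locally, and factor B and C1 inhibitor are textbook targets of interferon and inflammatory cytokines. Cfb and C2 are neighbours in the class III region of the major histocompatibility complex, on chromosome 17 in the RefSeq gene table.

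Cfp and C3ar1 were the members whose changes ran most alike, as described further on, and the 250 bases before the start of each are shown for that reason. They come from the RefSeq promoter table for build GRCm38.p6 and read 5′ to 3′ on the gene's own strand. The Cfp window is chrX:20931556-20931805 and the C3ar1 window chr6:122856158-122856407, both on the minus strand.
Cfp: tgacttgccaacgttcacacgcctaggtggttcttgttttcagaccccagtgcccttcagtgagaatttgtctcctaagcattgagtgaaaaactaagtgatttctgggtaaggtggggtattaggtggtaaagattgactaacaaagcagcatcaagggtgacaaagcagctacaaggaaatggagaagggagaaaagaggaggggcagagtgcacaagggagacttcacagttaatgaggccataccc
C3ar1: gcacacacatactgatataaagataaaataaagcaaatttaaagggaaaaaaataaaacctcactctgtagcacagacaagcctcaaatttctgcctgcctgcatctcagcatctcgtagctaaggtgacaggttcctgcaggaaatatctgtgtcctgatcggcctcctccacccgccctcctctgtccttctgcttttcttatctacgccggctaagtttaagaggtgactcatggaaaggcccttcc
No letters are in capitals because neither window held any of the 4 motifs searched on both strands: the interferon element core GAAANNGAA, the GAS element TTCNNNGAA, the NF-kB motif GGANTTTCC and the C/EBP motif TTGCNNAA. The NF-kB letters were in 1.07% of all 32851 promoter windows of that length, the GAS letters in 7.02%, the interferon core in 7.13% and the C/EBP letters in 9.56%. The table held a window for 3 of the 6 members, and the third, C5ar1, had 1 match, to the interferon core. It reads TTCCTTTTC on the gene's strand, the capitals being the match to the core's reverse complement, at chr7:16259396-16259404 on the minus strand, 66 bases before that start. The outer bounds RefSeq gives for C5ar1 reach past this start, so that its window overlaps the gene.

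Array medians lay at 1.02 to 1.07, since the deposited values had been scaled to a median near 1. Correlations over genes within array pairs were 0.99 to 0.998. After 50 Gy, the 8 arrays taken from SCCVII and #8520 on days 1 and 3 stood apart, with a 1st percentile of intensity of 0.297 to 0.378, against 0.0128 to 0.134 on the other 80. Results at 50 Gy on days 1 and 3 are therefore also given without those tumours where that ended or added a call or moved a called value by over 1.5 times. The 2 untreated sets of NFSa also differed. The summed intensity of the 10 tested genes induced by interferon gamma was 391 and 419 on the untreated arrays of its gamma arm, against 68.9 and 69.5 on those of its carbon arm. The 7 tested T and NK cell genes summed to 80.8 and 83 in the gamma arm, against 9.16 and 9.38 in the carbon arm, and the 9 neutrophil genes to 131 and 137, against 31.6 and 32.4. The sums of the 12 macrophage genes overlapped, at 474 and 528, against 523 and 531. Gene by gene, 3 of the 12 were higher in the gamma arm, with a median log2 difference of gamma minus carbon arm of -0.30.

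Before irradiation, NR-S1 stood below the 3 other tumours in 5 of the 6 members, and Serping1 followed another order. C3ar1, the receptor for C3a, had a log2 intensity of 2.35 ± 0.204 in NR-S1, 5.58 ± 0.285 in #8520, 5.59 ± 0.168 in NFSa and 6.03 ± 0.279 in SCCVII (SD, n = 4 arrays each, both arms). NFSa and #8520 were not told apart (0.01, adjusted p = 0.964), and NR-S1 minus SCCVII was -3.69 on the log2 scale (adjusted p = 1.28e-35). Properdin, Cfp, was 4.18 ± 0.0929 in NR-S1, 6.35 ± 0.127 in #8520, 6.55 ± 0.191 in SCCVII and 6.69 ± 0.0861 in NFSa. SCCVII was told apart neither from NFSa (-0.14, adjusted p = 0.157) nor from #8520 (0.20, adjusted p = 0.0507). C5ar1, the receptor for C5a, was 0.98 ± 0.147 in NR-S1, 2.92 ± 0.269 in #8520, 2.98 ± 0.270 in SCCVII and 3.44 ± 0.463 in NFSa, and SCCVII and #8520 were not told apart (0.06, adjusted p = 0.487).

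C2, the serine protease of the classical and lectin convertase, was at -2.27 ± 0.501 in NR-S1, 0.93 ± 0.482 in SCCVII, 1.16 ± 0.401 in #8520 and 1.35 ± 0.744 in NFSa (log2, SD, n = 4 arrays each). #8520 was not told apart from SCCVII (adjusted p = 0.127) or NFSa (adjusted p = 0.242). Factor B averaged 1.83 ± 0.242 in NR-S1, 3.34 ± 0.0730 in SCCVII, 3.95 ± 1.66 in NFSa and 4.99 ± 0.0343 in #8520, all neighbours in this order differing. That order held in neither arm for NFSa, which at 2.52 lay below SCCVII (3.31) in the carbon arm, and at 5.39 lay above #8520 (4.95 and 5.01) in the gamma arm. Serping1 was lowest in SCCVII, at 3.13 ± 0.710, and highest in NFSa, at 5.49 ± 0.796, with NR-S1 and #8520 both at 4.52 (0.00, adjusted p = 0.998). A moderated F test found differences between untreated tumours for 6 of 6 members, as it did for 91.3% of genes. By pairs, 6 members were called between NR-S1 and SCCVII (71% of genes), 6 between NR-S1 and NFSa (74.3%) and 5 between NR-S1 and #8520 (74%). Between SCCVII and NFSa 5 were called (62.8%), between SCCVII and #8520 3 (59.6%) and between NFSa and #8520 4 (53.9%).

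The wide spread of factor B in NFSa came from its 2 untreated sets, which read 5.40 and 5.39 in the gamma arm and 2.53 and 2.50 in the carbon arm. No other tumour showed such a gap for Cfb, where gamma minus carbon arm was 0.23 in NR-S1, 0.05 in SCCVII and -0.02 in #8520. Serping1 was 6.36 and 5.98 in the gamma arm of NFSa and 4.85 and 4.78 in its carbon arm, and in SCCVII it lay the other way, at 2.49 and 2.57 in the gamma arm and 3.59 and 3.89 in the carbon arm. Over 4 tumours the gamma minus carbon difference was called for 4 of 6 members, against 60.2% of genes. It was 0.79 for Cfb, 0.32 for C3ar1, -0.49 for C2 and -0.47 for C5ar1 on the log2 scale, and the next brightest probe of C5ar1 gave 0.37. Without NFSa it was 0.09 for Cfb (adjusted p = 0.359) and -0.23 for C2 (0.0696), and Serping1 was called, at -0.53. Each response was therefore taken against the untreated arrays of its own arm, and the comparison of beams is given on 3 baselines. The part that the untreated gap in NFSa plays in the gamma responses was not tested.

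At day 3 after carbon ions, all 6 members were higher on average over the 4 tumours, and factor B changed most. Cfb rose 6.98-fold (log2 2.80, SE 0.0708, adjusted p = 1.55e-37, limma), C3ar1 3.10-fold (1.63, SE 0.0738) and C2 2.49-fold (1.32, SE 0.0954). Serping1 rose 2.22-fold (1.15, SE 0.0670), Cfp 2.17-fold (1.12, SE 0.0625) and C5ar1 1.38-fold (0.46, SE 0.0555, adjusted p = 2.42e-10). Of all genes tested 68.2% were called in this comparison, with 26.4% of genes called higher. By tumour 5 members were called in NR-S1, where 63% of genes were, 4 in SCCVII (39.1%), 5 in NFSa (47.4%) and 5 in #8520 (50.3%). In each tumour all 6 mean values were above those of its untreated arrays. With each tumour counted as 1 replicate, the test passed for 3 members, Cfb (adjusted p = 0.0209), C2 (0.037) and C3ar1 (0.0417), with 1705 of all genes called. The same test gave at most 1 member in each of the other means over tumours.

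Factor B supplies the catalytic part of the alternative convertase. In NFSa the arrays read 6.71 and 6.37 at day 3 after carbon ions, against 2.53 and 2.50 untreated in the same arm, a log2 change of 4.02. NR-S1 read 5.29 and 5.37 after carbon ions, against 1.76 and 1.67 untreated (3.61). SCCVII had 5.53 and 5.69, against 3.39 and 3.23 (2.30), and #8520 had 6.22 and 6.34, against 4.97 and 5.03 (1.28). Irradiated and untreated arrays did not overlap in any of the 4 tumours, and #8520, the tumour with the highest untreated level, changed least. The day 3 levels lay within 5.29 to 6.71 in all tumours, a narrower span than the 1.67 to 5.03 of the untreated carbon arm. Set against the untreated arrays of both arms the mean change was 2.41, and without NFSa 2.40.

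C2 and properdin complete the convertase genes. C2 in #8520 read 3.66 and 3.79 after carbon ions, against 1.5 and 1.5 untreated (log2 change 2.22, adjusted p = 1.64e-14). In NFSa it read 3.41 and 3.51, against 1.80 and 2.16 (1.48), and in SCCVII 1.59 and 1.85, against 0.76 and 0.32 (1.18). NR-S1 had -1.33 and -1.65, against -1.65 and -2.11, where the ranges met and the change of 0.39 did not pass (adjusted p = 0.0686). The tumour with the smallest change in factor B thus had the largest in C2. Properdin showed another pattern, with 6.50 and 6.59 in irradiated NR-S1, against 4.06 and 4.23 untreated (2.40). Its arrays read 7.43 and 7.53 in SCCVII, against 6.75 and 6.30 untreated (0.95). In NFSa they read 7.50 and 7.17, against 6.62 and 6.76 (0.65), and in #8520 6.81 and 6.65, against 6.34 and 6.19 (0.46). No pair of Cfp groups overlapped, and NR-S1, which began lowest, changed most.

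C1 inhibitor, the regulator among the members, rose at day 3 in 3 tumours and peaked earlier in SCCVII. NR-S1 read 6.82 and 6.82 at day 3 after carbon ions, against 4.85 and 4.68 untreated (log2 change 2.06), and NFSa 6.57 and 6.18, against 4.85 and 4.78 (1.56). #8520 read 5.03 and 5.27, against 4.49 and 4.45 (0.68). In SCCVII the arrays read 4.55 and 4.68 at 6 h, 5.39 and 5.42 at day 1 and 4.02 and 4.03 at day 3, against 3.59 and 3.89 untreated. Its change there was 0.88 after 6 h and 1.66 after 1 day, and the day 3 change of 0.29 did not pass (adjusted p = 0.0864). #8520 also stood highest at day 1 (1.09), whereas NR-S1 showed no change before day 3 that passed (-0.10 at 6 h and -0.05 at day 1).

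Of the anaphylatoxin receptors, C3ar1 rose in all tumours and C5ar1 passed in NR-S1 alone. C3ar1 in NR-S1 read 5.39 and 5.28 at day 3 after carbon ions, against 2.18 and 2.22 untreated (log2 change 3.14, adjusted p = 6.1e-25). SCCVII read 6.75 and 6.78, against 5.97 and 5.66 (0.95). The fibrosarcomas read 7.0 and 6.56 in NFSa, against 5.37 and 5.76, and 6.35 and 6.79 in #8520, against 5.45 and 5.25 (1.22 in both). C5ar1 in NR-S1 had 2.30 and 2.38, against 0.96 and 1.17 untreated (1.27, adjusted p = 1.38e-14), with no overlap. The other changes in C5ar1 were 0.20 in SCCVII (adjusted p = 0.143), 0.19 in NFSa (0.171) and 0.18 in #8520 (0.176), and in each of these the irradiated arrays still lay above the untreated ones.

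C5ar1 had 3 probes on the platform, the only member with more than 1, and they did not give the same values. On day 3 after carbon ions the probe used here and the next brightest both gave 0.46, and the dimmest gave -0.09. After 50 Gy of gamma rays they gave, at day 3, 0.23, -0.12 and 0.11 in the same order. The difference between tumours at day 3 after carbon ions (adjusted p = 7.56e-09 for the probe used) was not called for the next brightest probe (0.0926) or for the mean of the 3 (0.194).

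**Figure D1:**
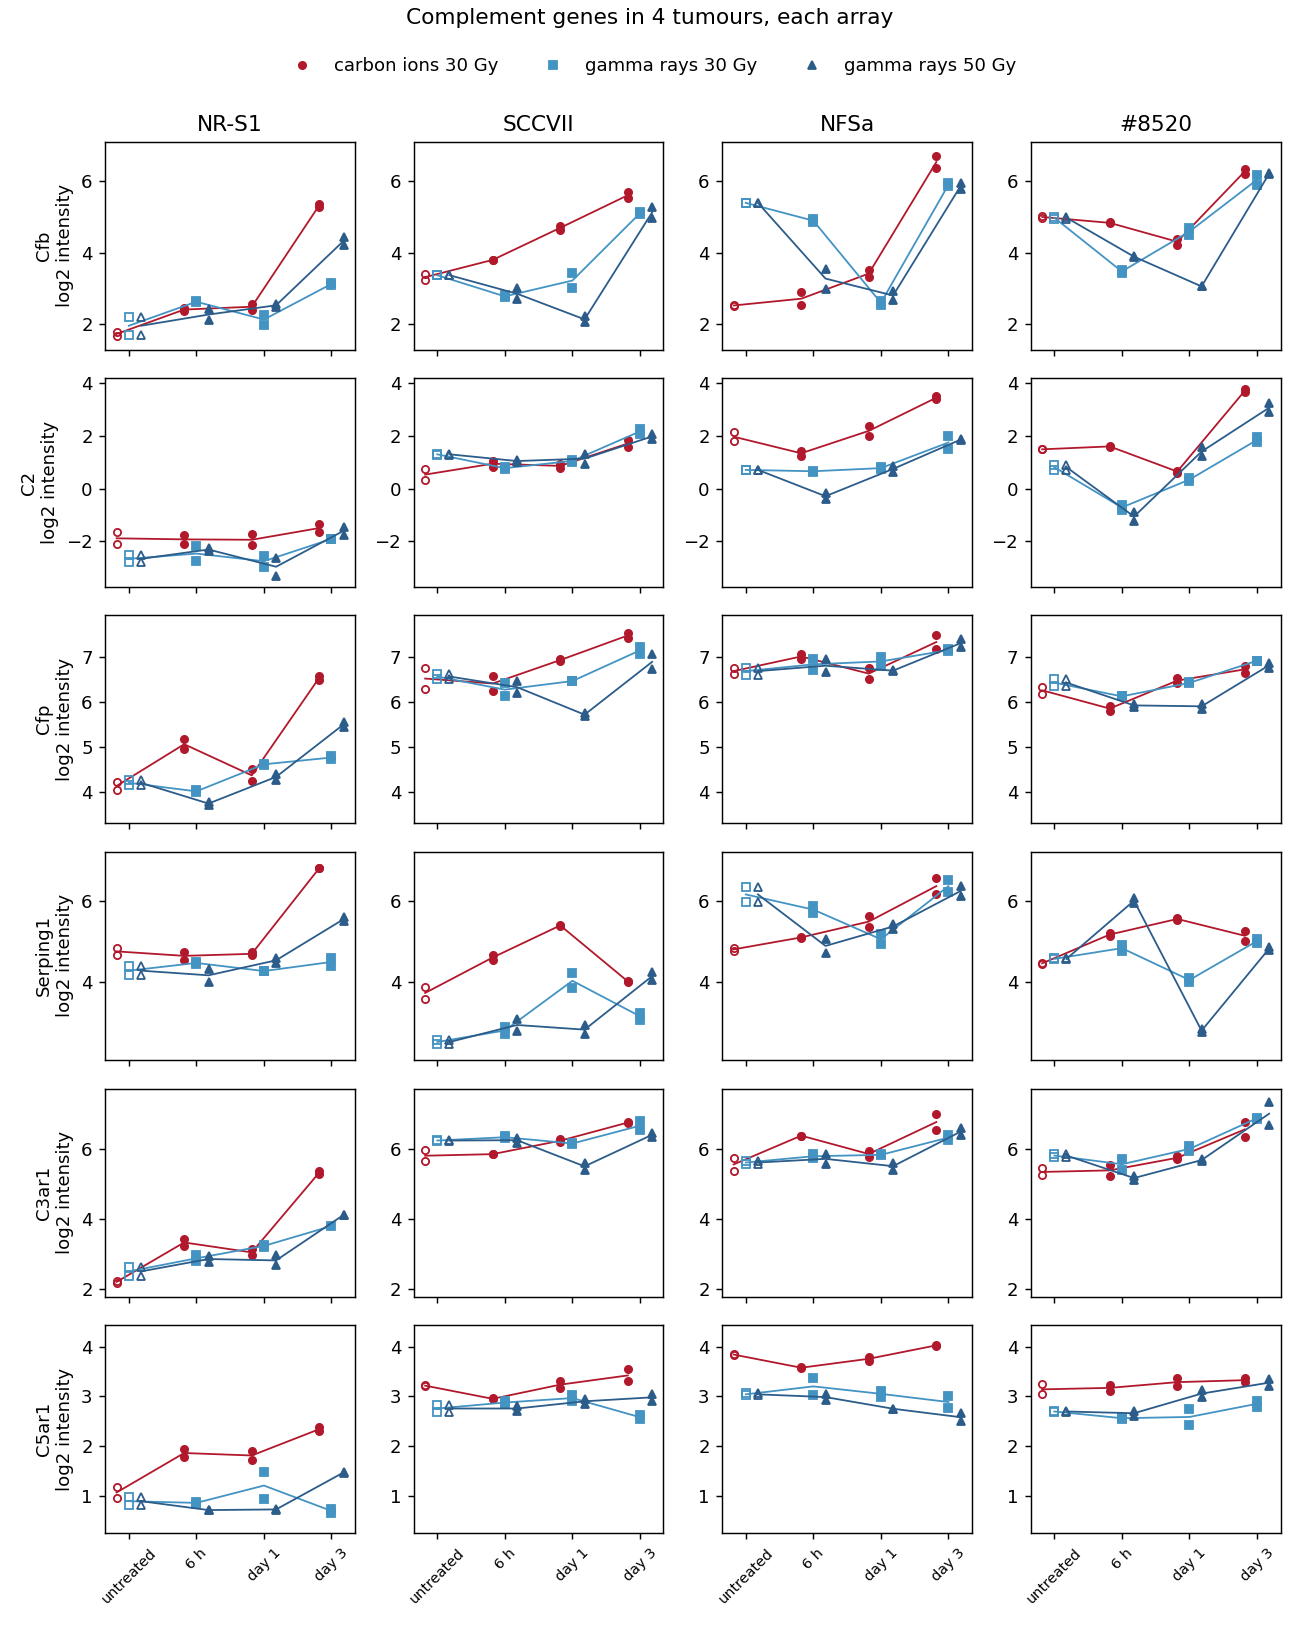
Log2 intensity on every array (vertical axis) of 6 complement genes in 4 tumours, with untreated, 6 h, day 1 and day 3 in order along each horizontal axis. Colours give the regimen (red carbon ions 30 Gy, light blue gamma rays 30 Gy, dark blue gamma rays 50 Gy), open symbols are untreated arrays of that beam's arm, drawn for both gamma doses, and lines join group means. The open symbols of factor B in NFSa lie near 5.4 in the gamma arm and near 2.5 in the carbon arm, and in NR-S1 the red lines end highest for every gene.

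The early times after carbon ions differed between members. At 6 h 4 of 6 were called, against 40.5% of genes (21% higher), all of them higher: C3ar1 by 0.51, Serping1 by 0.44, Cfb by 0.30 and Cfp by 0.18 on the log2 scale. With the untreated arrays of both arms the value for Cfb at 6 h was -0.10 (adjusted p = 0.183), and without NFSa that for Cfp was 0.14 (adjusted p = 0.146). The call of Cfp at 6 h also ended without the second irradiated array of NR-S1 (0.16) or of SCCVII (0.14), or the second untreated array of SCCVII (0.13), and without the last its day 1 value was 0.14 (adjusted p = 0.0622). At day 1 5 were called, against 42.1% (25.5% higher), led by Serping1 at 0.85 and Cfb at 0.59, with C3ar1 at 0.49, C5ar1 at 0.21 (-0.07 for its next brightest probe) and Cfp at 0.20. With the untreated arrays of both arms the day 1 value of Cfb was 0.19, still called. C2 was at -0.04 at 6 h (adjusted p = 0.784) and -0.09 at day 1 (0.474), and the mean change of C2 passed at day 3 alone. Day 3 exceeded 6 h for all 6 members, by 2.51 for Cfb, 1.35 for C2, 1.12 for C3ar1, 0.93 for Cfp, 0.71 for Serping1 and 0.39 for C5ar1, against 62.6% of genes called (21.5% higher). In #8520 factor B fell first, by 0.69 at day 1 (adjusted p = 6.51e-05), with 4.22 and 4.39 at day 1 after carbon ions, against 4.97 and 5.03 untreated. C2 fell there by 0.85 at day 1 (adjusted p = 0.000237), with 0.62 and 0.70, against 1.5 and 1.5. At day 1, 48.9% of all genes were called in #8520.

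**Figure D2:**
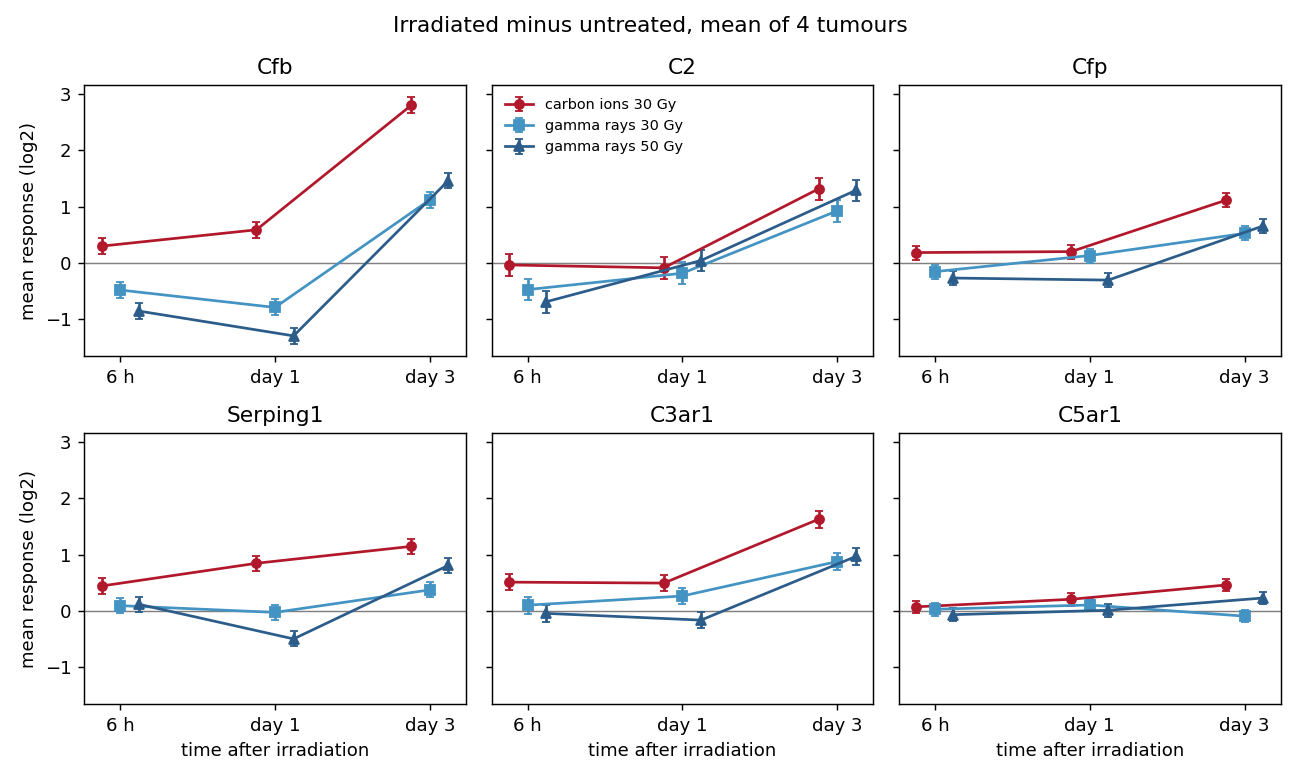
Mean change against untreated over 4 tumours (log2, vertical axis) of each gene at 6 h, day 1 and day 3 (horizontal axis), by regimen, with 95% confidence intervals from the spread between arrays. After carbon ions all 6 genes end above 0, at 2.80 for Cfb, while after either gamma dose Cfb lies below 0 at 6 h and day 1 and above 0 at day 3.

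Gamma rays at 30 Gy gave a lower factor B at first and a smaller rise afterwards. At 6 h 3 of 6 members were called, against 37.7% of genes, all lower: Cfb at -0.48, C2 at -0.48 (adjusted p = 5.37e-05) and Cfp at -0.16 (adjusted p = 0.042) on the log2 scale. The call of Cfp ended when any of 10 of its 16 arrays was left out, with values of -0.20 to -0.12 over all 16. With the untreated arrays of both arms Cfb was at -0.09 at 6 h (adjusted p = 0.217) and Cfp at -0.12 (0.0536). At day 1 2 were called, against 42.8%: Cfb, at -0.79, and C3ar1, at 0.26 (adjusted p = 0.00291). The day 1 value of Cfb rested on NFSa, where it read 2.54 and 2.64, against 5.40 and 5.39 untreated in the gamma arm (-2.80), and without NFSa the mean was -0.12 (adjusted p = 0.237). Serping1 averaged -0.03 at day 1 over the 4 tumours, with 1.51 in SCCVII and -1.10 in NFSa, and 0.33 without NFSa (adjusted p = 0.000432). In #8520 the fall was largest at 6 h, with Cfb at 3.50 and 3.44 after 30 Gy, against 5.01 and 4.95 untreated (-1.51), and C2 at -0.81 and -0.61, against 0.92 and 0.72 (-1.53). Factor B in NR-S1 went the other way at 6 h, with 2.6 and 2.64, against 2.19 and 1.70 untreated (0.67, adjusted p = 0.000258).

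At day 3 after 30 Gy of gamma rays 5 of 6 members were called, all higher, against 54.1% of genes (23.1% higher). Cfb rose 2.18-fold (log2 1.12), C2 1.90-fold (0.92), C3ar1 1.84-fold (0.88), Cfp 1.44-fold (0.52) and Serping1 1.30-fold (0.37, adjusted p = 4.32e-06). C5ar1 stood at -0.09 (adjusted p = 0.153). The changes of C2 lay close together in the 4 tumours, between 0.76 in NR-S1 and 1.04 in NFSa, as did those of Cfp, between 0.47 in NFSa and 0.58 in SCCVII. Factor B rose most in SCCVII, with 5.08 and 5.13 after 30 Gy, against 3.37 and 3.36 untreated (1.74), and least in NFSa, with 5.87 and 5.94, against 5.40 and 5.39 (0.51). The place of NFSa depends on the untreated set used, since its untreated arrays in the carbon arm read 2.53 and 2.50. C3ar1 in NR-S1 had a value on 1 of its 2 arrays at this time, 3.80, against 2.37 and 2.63 untreated (1.30). Day 3 exceeded 6 h for 5 members, with 46.8% of genes called (17.2% higher): Cfb by 1.61, C2 by 1.40, C3ar1 by 0.78, Cfp by 0.68 and Serping1 by 0.28, which was 0.18 without NFSa (adjusted p = 0.0533). For C5ar1 the difference was -0.12, which did not pass (adjusted p = 0.0651).

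After 50 Gy factor B and C2 were lower at 6 h and all 6 members were higher at day 3. At 6 h 3 members were called, against 49.7% of genes, all lower: Cfb at -0.86, C2 at -0.69 and Cfp at -0.27 on the log2 scale. Without NFSa, where Cfb was at -2.12, its mean was -0.44 at 6 h (adjusted p = 1.13e-05) and -0.87 at day 1. At day 1 4 were called, against 68.2%, again all lower: Cfb at -1.30, Serping1 at -0.50, Cfp at -0.31 and C3ar1 at -0.16 (0.0090 with each array centred on its median). The call of C3ar1 at day 1 ended when any of 9 of its 16 arrays was left out, without NFSa (-0.18, adjusted p = 0.0505), and with the untreated arrays of both arms (-0.0065). At day 3 all 6 were called, against 73.4% (28.7% higher): Cfb at 1.47 (2.76-fold), C2 at 1.29 (2.45-fold), C3ar1 at 0.97 (1.96-fold), Serping1 at 0.81 (1.75-fold), Cfp at 0.66 (1.58-fold) and C5ar1 at 0.23 (1.17-fold). Day 3 exceeded 6 h for all 6, by 0.30 for C5ar1 to 2.32 for Cfb, with 71.4% of genes called (26.7% higher). For Serping1 the difference was 0.69, and larger by over 1.5 times without SCCVII and #8520. Its changes at 6 h and day 3 were -0.11 and 1.27 in NR-S1 and -1.27 and 0.09 in NFSa. They were 0.42 and 1.63 in SCCVII, and 1.43 and 0.26 in #8520. With SCCVII and #8520 left out, day 1 gave 0.07 for Cfp and 0.10 for C3ar1, neither called, and -0.27 for Serping1 and -0.23 for C5ar1, both called. C5ar1 at day 3 then lost its call, at 0.06 (adjusted p = 0.574), as did its difference of day 3 minus 6 h, at 0.17 (0.0663), while without NFSa its day 3 value was 0.46. With the untreated arrays of both arms the day 3 value of C5ar1 was -0.01 (adjusted p = 0.914).

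Tumours took different courses at 50 Gy. Cfb in NFSa read 2.99 and 3.55 at 6 h, 2.92 and 2.67 at day 1 and 5.96 and 5.78 at day 3, against 5.40 and 5.39 untreated. In NR-S1 it read 2.11 and 2.41 at 6 h, 2.48 and 2.56 at day 1 and 4.22 and 4.44 at day 3, against 2.19 and 1.70 untreated, and did not pass through a low. Serping1 in #8520 read 6.08 and 5.95 at 6 h, 2.77 and 2.85 at day 1 and 4.88 and 4.79 at day 3, against 4.59 and 4.57 untreated. That is a log2 change of 1.43, then -1.77, then 0.26, and the day 1 and day 3 arrays of #8520 are among the 8 that stood apart. C1 inhibitor in SCCVII rose most at day 3, with 4.05 and 4.26, against 2.49 and 2.57 untreated (1.63), also on arrays that stood apart. C5ar1 in NFSa fell by 0.46 at day 3, with 2.50 and 2.66 after 50 Gy, against 3.06 and 3.02 untreated (adjusted p = 0.000724).

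Between the gamma doses, 50 Gy gave the higher response at day 3 for 4 of 6 members, against 59.5% of genes called (23.9% higher). The difference of 50 Gy minus 30 Gy was 0.44 for Serping1, 0.37 for C2, 0.34 for Cfb and 0.32 for C5ar1 on the log2 scale. The next brightest probe of C5ar1 gave -0.23 (adjusted p = 0.000883). For Cfp it was 0.13 (adjusted p = 0.0634) and for C3ar1 0.09 (0.329). With SCCVII and #8520 left out of the day 3 difference, C2 was not called (0.21, adjusted p = 0.377), Cfp was (0.44, adjusted p = 0.000288), and Cfb stood at 0.59. Without NFSa the value for C5ar1 was 0.53. At 6 h Cfb alone was called, at -0.37, against 27.1% of genes. It was 0.04 without NFSa. At day 1 5 were called, against 62.8% (19.6% higher): Cfb at -0.51, Serping1 at -0.47, Cfp at -0.44, C3ar1 at -0.43 and C2 at 0.23 (adjusted p = 0.0354), whose call ended when any of 8 of 16 arrays was left out. Without SCCVII and #8520 2 members were called at day 1, C5ar1 (-0.39, adjusted p = 0.000771) and C3ar1 (-0.37, adjusted p = 0.027). Cfb, at 0.30 (adjusted p = 0.0757), Serping1, at 0.29 (0.072), Cfp, at -0.24 (0.12), and C2, at -0.12 (0.709), were not. Serping1 was at -0.73 at day 1 without NFSa. Both doses share the untreated arrays, so that their difference is that between the irradiated arrays.

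**Figure D3:**
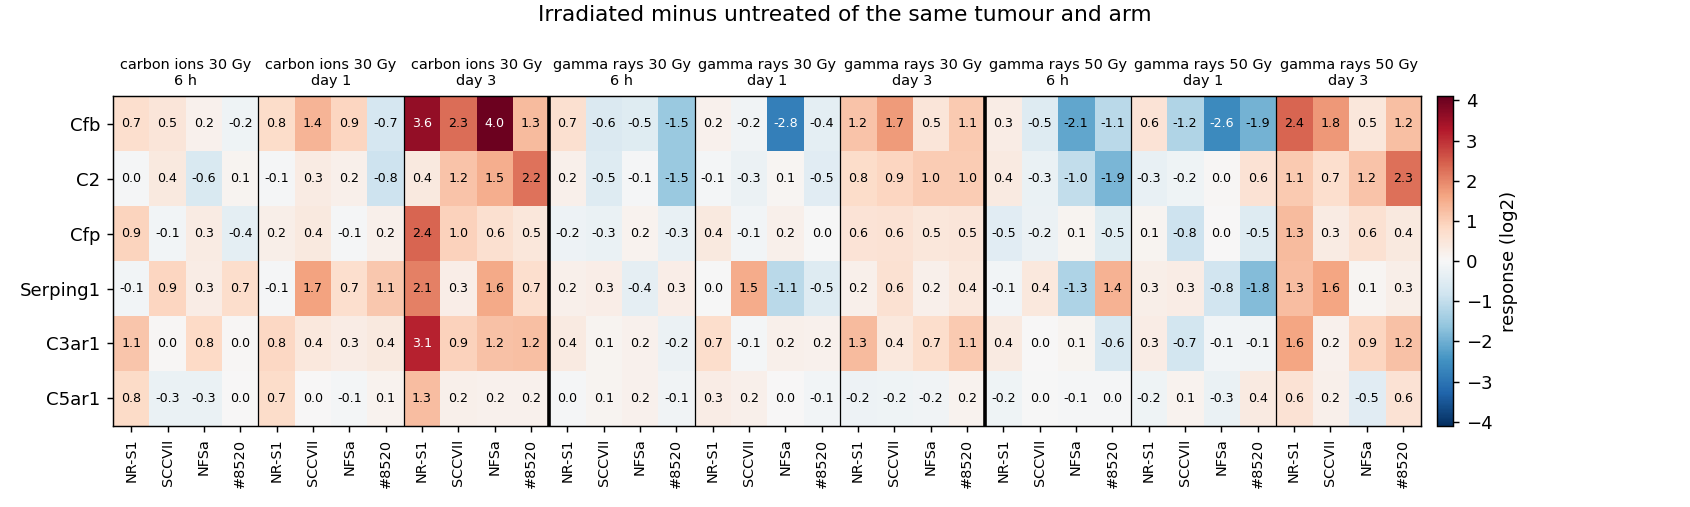
Change against untreated of the same tumour and arm (log2, colour and printed value) of 6 complement genes in 36 combinations of tumour, regimen and time. The carbon-ion day 3 cells are all above 0, from 0.18 for C5ar1 in #8520 to 4.02 for Cfb in NFSa, and the lowest cell is Cfb in NFSa at day 1 after 30 Gy of gamma rays, at -2.80.

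At the same dose of 30 Gy, carbon ions gave a higher mean response than gamma rays at day 3 for all 6 members, against 36% of genes called (15.8% higher). The difference of carbon minus gamma response was 1.68 for Cfb (SE 0.10, adjusted p = 3.97e-20), 0.77 for Serping1, 0.75 for C3ar1, 0.59 for Cfp, 0.55 for C5ar1 and 0.39 for C2 (adjusted p = 0.0189) on the log2 scale. At 6 h 5 were called, against 15.9% (9.28% higher): Cfb at 0.78, C2 at 0.44, C3ar1 at 0.41, Serping1 at 0.35 and Cfp at 0.34. At day 1 2 were called, against 25.1% (17.1% higher): Cfb at 1.38 and Serping1 at 0.87, with C3ar1 at 0.23 (adjusted p = 0.101). With each tumour as 1 replicate 0 members and 0 genes were called at day 3, where 2 members and 1520 genes had an unadjusted p under 0.05.

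The size of the beam difference depended on the untreated arrays. Without NFSa the day 3 difference was 1.07 for Cfb, 0.84 for C3ar1, 0.73 for Cfp, 0.63 for C5ar1 and 0.58 for Serping1, all called, and 0.38 for C2, which was not (adjusted p = 0.059). C2 also lost its call at day 3 without the second untreated array of NR-S1 in the carbon arm (0.33) or the second array of NFSa after 30 Gy of gamma rays (0.33), and at 6 h without that NR-S1 array (0.38) or the first of NR-S1 after gamma rays (0.37). Carbon-ion arrays set directly against 30 Gy gamma-ray arrays, with no untreated arrays, gave 1.03 for C5ar1, 0.90 for Cfb, 0.88 for C2, 0.83 for Serping1, 0.52 for Cfp and 0.44 for C3ar1 at day 3, all called. For Cfb at 6 h the direct difference was -0.01 (adjusted p = 0.956), against 0.78 with the untreated arrays of each arm, and C3ar1 at 6 h was at 0.09 (0.282). C2 at 6 h was 0.93 when set directly and 0.78 without NFSa, and Serping1 at 6 h lost its call without NFSa (0.25, adjusted p = 0.104). At day 1 the difference in Cfb was 0.61 without NFSa and 0.59 when set directly, against 1.38, and that in Serping1 0.57 without NFSa, all called. Set directly, C2 (0.58) and C5ar1 (0.57) were also called at day 1. The direct differences keep the gap between untreated arms. As gamma minus carbon it was -0.49 for C2, -0.47 for C5ar1, 0.79 for Cfb and 0.32 for C3ar1. It was not called for Serping1 (-0.06) or Cfp (0.07). The next brightest probe of C5ar1 had this gap the other way, with day 3 responses of 0.46 after carbon ions and 0.11 after 30 Gy of gamma rays. On that probe the gap offset the difference between these responses, so the direct values of C5ar1 rest on the probe used here. In NR-S1 every member read higher after carbon ions than after 30 Gy of gamma rays at day 3. Serping1, for one, read 6.82 and 6.82 after carbon ions, against 4.61 and 4.40 after gamma rays. The response of C2 in NR-S1 went the other way, at 0.39 after carbon ions and 0.76 after gamma rays. Its untreated arrays there read -1.65 and -2.11 in the carbon arm, against -2.53 and -2.79 in the gamma arm. Serping1 in SCCVII also responded less to carbon ions (0.29) than to gamma rays (0.64), as did Cfp in #8520 (0.46 and 0.49). The responses of Cfb were 4.02 after carbon ions and 0.51 after gamma rays in NFSa, and 3.61 and 1.17 in NR-S1. They were 2.30 and 1.74 in SCCVII, and 1.28 and 1.07 in #8520. In #8520 C2 read 3.66 and 3.79, against 1.76 and 1.95, while Cfp read 6.81 and 6.65, against 6.92 and 6.92.

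**Figure D4:**
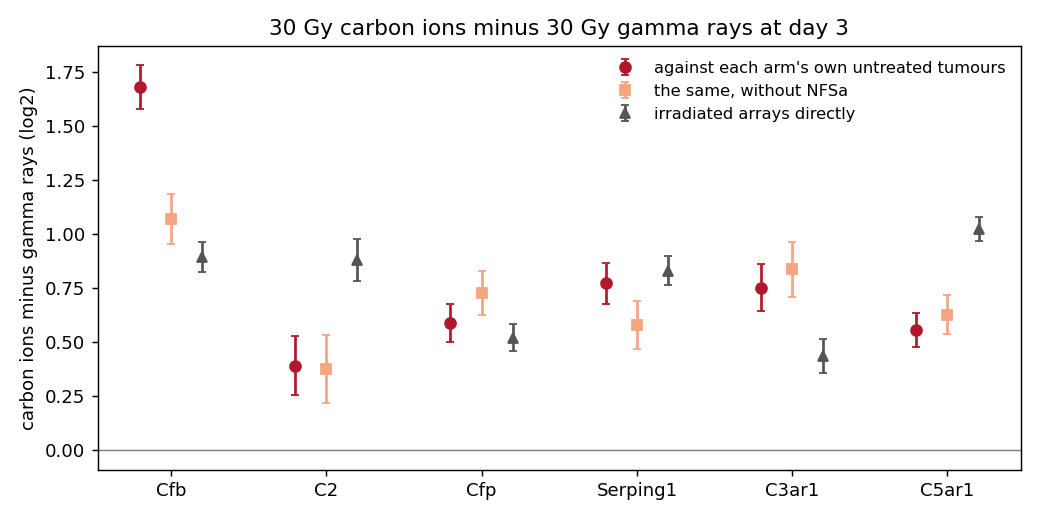
Carbon-ion minus 30 Gy gamma-ray difference at day 3 (log2, mean of tumours, bars 1 SE) for 6 complement genes, with the untreated arrays of each arm, without NFSa, and with irradiated arrays set directly against each other. Every point lies above 0, and Cfb is at 1.68, 1.07 and 0.90 on the 3 baselines in that order. C5ar1 is drawn for the probe used here.

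The response differed between tumours for 6 of 6 members at 6 h after carbon ions (45% of genes), for 4 at day 1 (58.3%) and for 6 at day 3 (61.9%), by a moderated F test. The call of C2 at 6 h ended without the second untreated array of NFSa (adjusted p = 0.0958) or its first irradiated array (0.0599). At day 1 Cfp (adjusted p = 0.114) and C3ar1 (0.0907) were not called. At day 3 the adjusted p was 1.75e-17 for Cfb and 7.92e-14 for Cfp. Cfb ran from 1.28 in #8520 to 4.02 in NFSa, C2 from 0.39 in NR-S1 to 2.22 in #8520, and Serping1 from 0.29 in SCCVII to 2.06 in NR-S1. The place of NFSa for Cfb depends on the untreated set used, at 2.52 in its carbon arm and 5.39 in its gamma arm. Cfp, C3ar1 and C5ar1 were all highest in NR-S1. The day 3 response to 30 Gy of gamma rays differed between tumours for 2 members, Cfb (adjusted p = 1.42e-05) and C3ar1 (0.00446), against 56% of genes (1 member without the first array of NR-S1), and after 50 Gy 6 did, against 77%. With the untreated arrays of both arms, more than 2 members were called after 30 Gy, as given in the closing section.

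Macrophage markers changed most in NR-S1, as did some of the members. Of 15 macrophage and monocyte genes 12 were tested, and their summed intensity at day 3 after carbon ions was 455 and 471 in NR-S1, against 98.4 and 103 on its untreated arrays. It was 754 and 758 in SCCVII, against 446 and 497, 604 and 709 in NFSa, against 523 and 531, and 507 and 521 in #8520, against 410 and 411. After 30 Gy of gamma rays NR-S1 had 150 and 160, against 125 and 129 untreated. On average 9 of the 12 rose after carbon ions at day 3 and 1, Cd163, fell by 0.19, with a median log2 change of 0.75 against -0.08 for all genes, led by Aif1 (1.82), Mpeg1 (1.65) and Ms4a7 (1.49). Of all genes 68.2% were called in this comparison and 26.4% were called higher, also the background of the lists that follow. The median over the list was 2.0 in NR-S1, 0.37 in SCCVII, 0.28 in NFSa and 0.07 in #8520. The largest changes of Cfp, C3ar1, C5ar1 and Serping1 were also in NR-S1, while Cfb changed most in NFSa and C2 in #8520. The part of macrophage number in the changes of the members was not tested.

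Markers of other white blood cells and induced genes rose at the same time. All 7 tested T and NK cell genes of 9 listed rose at day 3 after carbon ions (median 2.22), with Gzma at 2.98, Klrk1 at 2.80 and Prf1 at 2.47. Their summed intensity was 105 and 116 in NFSa, against 9.16 and 9.38 untreated in the carbon arm, and 52.2 and 54.4 in NR-S1, against 6.15 and 7.24. In the gamma arm, untreated NFSa already stood at 80.8 and 83. Of 12 neutrophil genes 9 were tested and 8 rose (median 1.31), among them Retnlg at 1.75, Fpr2 at 1.68 and Mmp8 at 1.66. Their sum was 553 and 574 in NR-S1, against 120 and 129 untreated, and 39 and 42.1 in SCCVII, against 25.8 and 26.9.

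All 10 tested genes induced by interferon gamma rose (12 listed, median 1.48), led by Gbp8 at 3.24, Gbp4 at 1.94 and Igtp at 1.79. By tumour their median was 2.98 in NFSa, 1.33 in NR-S1, 1.07 in SCCVII and 0.30 in #8520, which is also the order of the factor B changes (4.02, 3.61, 2.30 and 1.28). Both values of NFSa are against its carbon arm, whose untreated arrays lay below those of its gamma arm for this list and for Cfb. All 9 tested type I interferon genes rose as well (10 listed, median 2.27), with Mx1 at 2.75, Oasl1 at 2.68 and Rsad2 at 2.44. Of 8 tested genes induced by interleukin 1 and NF-kB 6 rose and 1, Tnfaip3, fell by 0.16 (10 listed, median 0.98), with Saa3 at 2.54, Cxcl2 at 1.28 and Ptx3 at 1.04. After 30 Gy of gamma rays, at day 3, the interferon gamma list had a median of 0.33, and the type I list one of 2.18. For carbon minus gamma response at day 3 the medians were 1.19 for the interferon gamma list, 1.45 for T and NK cells, 0.77 for macrophages and 0.25 for the type I list, against -0.06 for all genes. What part these lists have in the changes of the members was not tested.

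Lists of structural cells gave mixed changes. Of 7 fibroblast and matrix genes 5 rose (median 0.21), with Dcn at 1.75 and Lum at 1.46, against 26.4% of all genes called higher. Of 4 tested endothelial genes 1, Kdr, rose, by 0.39. Of 6 tested keratinocyte genes Krt6a rose by 0.20, and Krt17, Trp63 and Krt14 fell by 0.69, 0.44 and 0.28. Cd163, Tnfaip3, Kdr, Krt6a, Krt14 and Colec10 are named here because a count singled them out after their values were seen. Of 5 liver genes listed, 1 was bright enough to test, Fgb, and it fell by 0.47.

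The rest of the complement system was read from 47 further genes, of which 38 had a probe and 23 were tested. At day 3 after carbon ions 15 of the 23 rose and 2 fell, with a median log2 change of 0.49 against -0.08 for all genes, where 26.4% of genes were called higher. Among the recognition molecules and their proteases 8 of 9 rose (median 0.99) and 1, Colec10, fell by 0.18. The C1q chains, which bind immune complexes and dying cells, changed by 1.42 (C1qa), 1.30 (C1qc) and 1.14 (C1qb), and C1ra, a protease of the C1 complex, by 1.35. After 30 Gy of gamma rays 7 of these 9 rose and 1 fell (median 0.50), against 54.1% of all genes called (23.1% higher). After 50 Gy 7 rose and 2 fell (median 0.62), against 73.4% (28.7% higher).

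Among the regulators 3 of 6 tested genes rose and none fell. Cd55, which speeds the decay of convertases on the cell surface, rose by 1.00, Cd59a, which blocks the membrane attack complex, by 0.52, and Cr1l by 0.31. Susd4 stood at -0.15 (adjusted p = 0.0621). Of 6 tested receptors 4 rose. Vsig4, a receptor of tissue macrophages for C3 fragments, changed by 1.57 (adjusted p = 1.43e-29), Itgam by 0.73, Itgax by 0.49 and Cd93 by 0.18. The terminal components, which form the membrane attack complex and come mainly from the liver, had 2 genes bright enough to test: C8a, which fell by 0.45, and C8b, at 0.02 (adjusted p = 0.741). Factor D (Cfd), the protease that cuts factor B, had no probe and was not analysed here. After gamma rays 11 of the 23 rose and 3 fell at 30 Gy (median 0.20), against 54.1% of all genes called (23.1% higher). At 50 Gy 12 rose and 7 fell (median 0.18), against 73.4% (28.7% higher). For carbon minus gamma response at day 3 12 of 23 were called higher and 0 lower, with a median of 0.22, against 36% of genes called (15.8% higher).

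Across the 36 responses (4 tumours, 3 regimens, 3 times) the members fell into looser and tighter pairs. These correlations are descriptions, since responses of an arm share untreated arrays. Cfp and C3ar1 ran most alike (Pearson r = 0.915), followed by Cfb with C3ar1 (0.734), Cfb with Cfp (0.684) and Cfb with Serping1 (0.669). The neighbours Cfb and C2 stood at 0.595, and C2 with Serping1 was lowest, at 0.112. Among 13341 genes, the closest to Cfb were Fcgr4 (0.971), an activating Fc receptor, Fgl2 (0.963) and Slfn1 (0.962). C3ar1 lay nearest to Fcer1g (0.946), the signalling chain of Fc receptors, Coro1a (0.939) and Myo1f (0.937), and Cfp to Plekho1 (0.914), Pirb (0.903) and Rac2 (0.897). C5ar1 lay nearest to Cd300ld (0.833), Lyz2 (0.822), the lysozyme of myeloid cells, and Pde8a (0.802). The best matches of C2 were Acp2 (0.873), H2-T24 (0.873) and Xdh (0.858). Serping1 had 1 close match, Rarres2 (0.911), the precursor of chemerin, and then Ms4a8a (0.756) and Slpi (0.753).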

How the data were processed

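RNA of 88 tumour samples was labelled with Cy5 and hybridised to one-colour CodeLink arrays, per the labels' protocols. The deposited value of each probe is an intensity on a linear scale, which the authors had scaled to an array median near 1 and background-subtracted, as the values show (lowest -0.271, 0.751% missing, 0.15% not above 0). The sources used here do not give the software or the background and scaling methods. The number of arrays limits the precision.

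Intensities not above 0 became missing, and the rest were taken to log2. Of 36227 probes 21615 had 1 gene symbol, 681 several and 13931 none. Symbols were updated by Entrez number for 21487 probes, through a RefSeq table of assembly GRCm38.p6. The brightest probe stood for a gene. The dimmest 25% of genes, and those with values on under 80% of arrays, were left out.

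limma 3.58.1 in R 4.3.3 (data.table version 1.17.8) fitted the mean of each of 44 groups, with 44 residual degrees of freedom and a prior of 7.3. A response is an irradiated group's mean minus that of its tumour's untreated arrays in the same arm. Tests were two-sided, adjusted by Benjamini-Hochberg over all genes, and called under 0.05. The scripts were tested on simulated data.

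The members, gene lists and tests were chosen with earlier results of these data known. Named are the members and the 3 genes most like each member over 36 responses. Of the largest changes at day 3 after carbon ions, at most 4 are named of each complement role and at most 3 of each other list. Genes that a count singled out were added, and a list of fat cells, with 2 tested genes, is not reported here. Titles number the arrays of a group, but arrays of the same number correlated at -0.2 to 0.438 in their deviations, so they were not paired. Alternatives were the normalization, an offset, the filter on dim genes, the probe, the prior, the arrays in the fit, the untreated arrays, each tumour as 1 replicate, 50 Gy without SCCVII and #8520, a block for the array number, and each array left out. Leaving out NFSa, and setting the beams directly against each other, were added after seeing the data.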

Additional observations from a re-analysis of the deposited data

Results flagged for a closer look

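The response differed between tumours by a moderated F test (limma, adjusted over all genes) in the following cases, and each value is the highest minus the lowest of the 4 tumour responses on the log2 scale. At 6 h after carbon ions it was 0.85 for Cfb (NR-S1 over #8520), 1.05 for C2 (SCCVII over NFSa), 0.98 for Serping1 (SCCVII over NR-S1), 1.33 for Cfp (NR-S1 over #8520), 1.09 for C3ar1 (NR-S1 over SCCVII) and 1.06 for C5ar1 (NR-S1 over NFSa). At day 1 it was 2.08 for Cfb and 1.18 for C2 (both SCCVII over #8520), 1.72 for Serping1 (SCCVII over NR-S1) and 0.83 for C5ar1 (NR-S1 over NFSa). At day 3 it was 2.74 for Cfb (NFSa over #8520), 1.83 for C2 (#8520 over NR-S1), 1.78 for Serping1 (NR-S1 over SCCVII), 1.94 for Cfp (NR-S1 over #8520), 2.19 for C3ar1 (NR-S1 over SCCVII) and 1.09 for C5ar1 (NR-S1 over #8520).

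At day 3 after 30 Gy of gamma rays the span was 1.23 for Cfb (SCCVII over NFSa) and 0.87 for C3ar1 (NR-S1 over SCCVII). At day 3 after 50 Gy it was 1.91 for Cfb (NR-S1 over NFSa), 1.58 for C2 (#8520 over SCCVII), 1.54 for Serping1 (SCCVII over NFSa), 0.96 for Cfp and 1.45 for C3ar1 (both NR-S1 over SCCVII) and 1.04 for C5ar1, where #8520 and NR-S1 were both at 0.58 and NFSa at -0.46.

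The response also differed between times, by the test of day 3 minus 6 h over 4 tumours. After carbon ions the difference was 2.51 for Cfb, 1.35 for C2, 0.71 for Serping1, 0.93 for Cfp, 1.12 for C3ar1 and 0.39 for C5ar1. After 30 Gy of gamma rays it was 1.61 for Cfb, 1.40 for C2, 0.28 for Serping1, 0.68 for Cfp and 0.78 for C3ar1. After 50 Gy it was 2.32 for Cfb, 1.98 for C2, 0.69 for Serping1, 0.93 for Cfp, 1.01 for C3ar1 and 0.30 for C5ar1.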

How the results depend on the processing

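Calls at day 3 after carbon ions kept their direction under every alternative run, except that the dimmest-50% filter left C2 out and that the dimmest probe of C5ar1, taken alone, gave -0.086. Untreated NFSa, the 3 probes of C5ar1, the 8 arrays that stood apart and 2 arrays per group limit the rest, and the causes of the changes below were not tested. Values are log2 differences.

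Counts of members called moved as follows. For 30 Gy of gamma rays at day 1 the count was 4 with median-centred arrays, 4 with only the arrays compared and 5 with untreated arrays of both arms (2 in the report). For 50 minus 30 Gy at 6 h it was 2 with an offset of 0.1, 2 with only the arrays compared and 3 without SCCVII and #8520 (1 in the report), and at day 1 it was 2 without those tumours (5). Differences between tumours at day 3 after 30 Gy gave 5 with both arms (2), and the beams set directly at day 1 gave 4 (2). With each tumour as 1 replicate the counts at 6 h, day 1 and day 3 were 0, 0 and 3 after carbon ions, 0, 0 and 1 after 30 Gy, 0, 0 and 0 after 50 Gy, 0, 0 and 0 between beams and 0, 0 and 0 between doses, and for day 3 minus 6 h 1, 0 and 1 in the order carbon ions, 30 Gy and 50 Gy. Members with an unadjusted p under 0.05 there numbered 2, 2 and 5, then 0, 0 and 5, then 0, 1 and 5, then 2, 2 and 2, then 0, 2 and 0, and 5, 4 and 4.

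Directions turned for these values. Quantile normalization gave 0.13 for C5ar1 (50 minus 30 Gy, day 1). Median centring gave 0.0017 for Serping1 (30 Gy, day 1), 0.0090 for C3ar1 (50 Gy, day 1), -0.012 for Cfp (beams, day 1) and 0.051 for C5ar1 (50 minus 30 Gy, day 1). It moved the median of all genes at day 1 after 50 Gy from -0.0946 to 0.0789. For C5ar1 the mean of all probes gave -0.069 and -0.044 (30 Gy, 6 h and day 1) and -0.13 (50 Gy, day 1). Its next brightest probe gave -0.072 (carbon ions, day 1), -0.078, -0.14 and 0.11 (30 Gy, 6 h, day 1 and day 3), -0.32 and -0.12 (50 Gy, day 1 and day 3), 0.047 and -0.23 (50 minus 30 Gy, 6 h and day 3), 0.19 and -0.084 (day 3 minus 6 h, 30 and 50 Gy) and 0.37 (untreated arms). Untreated arrays of both arms gave -0.10 for Cfb and 0.21 for C2 (carbon ions, 6 h), 0.16 for C2 (day 1), -0.21 and -0.13 for C5ar1 (30 Gy, 6 h and day 1), 0.11 for C3ar1 (50 Gy, 6 h), -0.20 for C2 and -0.22 for C5ar1 (50 Gy, day 1) and -0.0059 for C5ar1 (50 Gy, day 3).

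Leaving SCCVII and #8520 out of 50 Gy gave -0.69 for Serping1 and 0.23 for C3ar1 (6 h), -0.13 for C2, 0.069 for Cfp, 0.10 for C3ar1 and -0.23 for C5ar1 (day 1), and for 50 minus 30 Gy -0.60 for Serping1 (6 h) and 0.30 for Cfb, -0.12 for C2 and 0.29 for Serping1 (day 1). All genes called for 50 minus 30 Gy at day 1 then numbered 606, against 8438, and at day 3 1388, against 7999 (12085 with no filter on dim genes). Without NFSa the values were 0.16 for C2 (carbon ions, 6 h), -0.015 for C5ar1 (30 Gy, 6 h), 0.33 for Serping1 (30 Gy, day 1), and 0.044 for Cfb and 0.027 for C2 (50 minus 30 Gy, 6 h). The beams set directly gave -0.0052 for Cfb (6 h) and -0.086 for C3ar1 (day 1). With 1 array left out, the ranges that crossed 0 were -0.096 to 0.020 for C2 (carbon ions, 6 h), -0.014 to 0.071 for C5ar1 (30 Gy, 6 h), -0.075 to 0.021 for Serping1 (30 Gy, day 1), -0.047 to 0.13 for C2 and -0.0080 to 0.030 for C5ar1 (50 Gy, day 1), and -0.020 to 0.069 for Serping1 (50 minus 30 Gy, 6 h). The counts ran from 1 to 3 for differences between tumours (30 Gy, day 3) and from 1 to 2 for 50 minus 30 Gy at 6 h.

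A block for the array number changed 0 of 22 counts and 1 of 132 single values, Cfp at 6 h after 30 Gy (-0.16, adjusted p = 0.0523 with the block).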
